A study of Mus musculus with 12 samples.

Results

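The genes described here were 10 markers of microglia, the resident macrophages of the brain: C1qa, C1qb, C1qc, Cx3cr1, Csf1r, P2ry12, Tmem119, Aif1, Trem2 and Tyrobp. They were chosen by name, and all 10 were found among the 23352 genes of the exon count table and the 20504 genes of the count table restricted to coding sequence (CDS). Microglia express these genes to sense and shape their surroundings. Csf1r is the receptor that keeps microglia alive, Cx3cr1 receives the neuronal chemokine fractalkine, and P2ry12 is the purine receptor that steers their processes. Trem2 and its adaptor Tyrobp form a receptor for lipids and debris, the 3 C1q chains build the recognition molecule of the classical complement pathway, Aif1 encodes the actin-binding protein Iba1, and Tmem119 is a membrane protein widely used to tell microglia from other macrophages.

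The 12 libraries came from 6 adult mice of 3 months that carried Camk2a-cre and the RiboTag allele, in which Cre switches the ribosomal protein Rpl22 to a form with an HA tag. Camk2a-cre acts in excitatory forebrain neurons, so the tagged ribosomes belong to those neurons and not to microglia. No AZD-8055 treatment is given for mice E and F. Each gave an input RNA-Seq library from brain lysate and an RNA-Seq library from the HA immunoprecipitate (IP). Mice A and B are labelled untreated, while the study's methods give its controls the vehicle, 30% Captisol by gavage, and they are called vehicle mice here. Mice C and D received 100 mg/kg of AZD-8055, an ATP-competitive inhibitor of the kinase mTOR, for 1 h. Each of these 4 mice gave a poly(A) RNA-Seq library and a ribosome footprint library from the same frontal brain tissue. Every group thus held 2 mice. Footprints and poly(A) RNA were taken from whole tissue, so for microglial genes they report on the microglia themselves and on any other cell that expresses the gene. In such bulk tissue, fewer microglia and less RNA per microglial cell cannot be told apart.

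The libraries held 16796999 to 27878212 exon counts for RNA-Seq and 3503873 to 9259938 CDS counts for footprints, the deepest being vehicle mouse A. Replicates differed by more than counting noise, with a chi-square per degree of freedom of 2.61 to 17.4. Of the 10 excitatory neuron markers tested, 4 were higher in the IP and none was lower, with a median log2 change of 0.84. Markers of monocytes, granulocytes and lymphocytes summed to 2.04 to 3.38 CPM (counts per library scaled to a common total) in the 6 RNA-Seq libraries that were not immunoprecipitated. On CDS counts they summed to 7.42 to 19.8 CPM in the footprint libraries, against 2.98 to 5.16 CPM in RNA-Seq of the same mice. Of 5 red blood cell markers in the table, the 4 globin genes, pairs of near-identical copies, were at 0 in every library, and Alas2, an enzyme of haem synthesis, had 54 to 182 exon counts in those 6 libraries. Border macrophage markers, which label the macrophages of meninges and vessels that share several of the 10 genes, summed to 35.9 to 57.5 CPM in those 6 libraries, against 357.0 to 398.0 CPM for the 10 microglial markers. These are sums over different genes and are not corrected for gene length. The part of border macrophages in the values below was not tested.

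The 10 genes lie in 8 places of the mouse genome (GRCm38, the build named mm10 in the submitters' processing notes). The C1q genes form a cluster on chromosome 4, with C1qb at chr4:136880126-136886200, C1qc at chr4:136889801-136892936 and C1qa at chr4:136895916-136898844. P2ry12 (chr3:59216271-59262985) lies within the span of the protein-coding gene Med12l, and Cx3cr1 (chr9:120048683-120068296) overlaps the long noncoding RNA gene Gm33858. Tmem119 (chr5:113793729-113800396), Tyrobp (chr7:30413782-30417582), Aif1 (chr17:35170986-35176083) and Trem2 (chr17:48346401-48352276) overlap no other gene in RefSeq. Csf1r overlaps the microRNA gene Mir6983 and the long noncoding RNA gene Gm52352.

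PU.1, the ETS-family transcription factor that macrophages and microglia require, binds purine-rich sites with a GGAA core. RefSeq windows running from 250 bases before to 50 bases after the annotated start were used for 6 of the 10 genes. They were searched on both strands for the letters AGGAAGT. A further member's window was at hand but is not reported here. A match was found in 3 of the 6, C1qb, C1qc and P2ry12, compared with 9.35% of all 32851 promoter windows of the same length. The matches began 53, 195 and 52 bases before the start. The stretches around them are shown 5′ to 3′ on the gene's own strand, which is the minus strand for all 3, with the match in capitals, because these 3 genes belong to the 8 that were lower in the IP below.
C1qb, chr4:136886223-136886277: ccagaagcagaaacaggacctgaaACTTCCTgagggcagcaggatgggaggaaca
C1qc, chr4:136893079-136893133: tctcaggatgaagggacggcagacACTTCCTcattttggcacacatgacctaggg
P2ry12, chr3:59263007-59263061: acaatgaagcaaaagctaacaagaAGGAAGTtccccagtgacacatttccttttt

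The windows of Cx3cr1, which was also lower in the IP, and of Aif1 and Trem2 held no such match. Those of Aif1 (minus strand) and Trem2 (plus strand) are shown whole because they belong to the 2 members that did not pass the IP test. Absence of these letters from a window says nothing about binding of the factor. Any link between these letters and the IP change was not tested.
Aif1, chr17:35176003-35176302: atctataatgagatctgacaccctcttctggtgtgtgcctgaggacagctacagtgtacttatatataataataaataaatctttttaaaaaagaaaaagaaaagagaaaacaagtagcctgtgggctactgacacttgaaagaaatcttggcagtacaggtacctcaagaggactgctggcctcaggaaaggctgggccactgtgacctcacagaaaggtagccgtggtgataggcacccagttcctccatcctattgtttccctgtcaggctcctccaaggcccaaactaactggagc
Trem2, chr17:48346151-48346450: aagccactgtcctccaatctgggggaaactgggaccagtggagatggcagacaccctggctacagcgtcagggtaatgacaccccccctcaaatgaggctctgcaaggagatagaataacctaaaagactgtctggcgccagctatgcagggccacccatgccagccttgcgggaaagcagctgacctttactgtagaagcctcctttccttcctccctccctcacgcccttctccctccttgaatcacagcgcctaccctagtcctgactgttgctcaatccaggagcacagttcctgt

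The first comparison asked how far the RiboTag IP removed microglial transcripts from the RNA bound to neuronal ribosomes. Of the 10 markers, 8 were lower in the IP than in the input by more than 2-fold (edgeR's quasi-likelihood test on exon counts, Benjamini-Hochberg adjusted p below 0.05), and none was higher. Across all 13254 genes tested, 21.8% were lower and 11.7% were higher by the same rule. The members' median log2 change was -2.99, compared with -0.03 over all genes. Summed over the 10 genes, the IP held 34.6 CPM in mouse E and 35.1 CPM in mouse F, which was 9.44% and 9.68% of the 367 and 363 CPM in the matching inputs. These summed shares rest on library totals, whereas the retained shares of single genes below use size factors, so the 2 are on different scales.

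**Figure D1:**
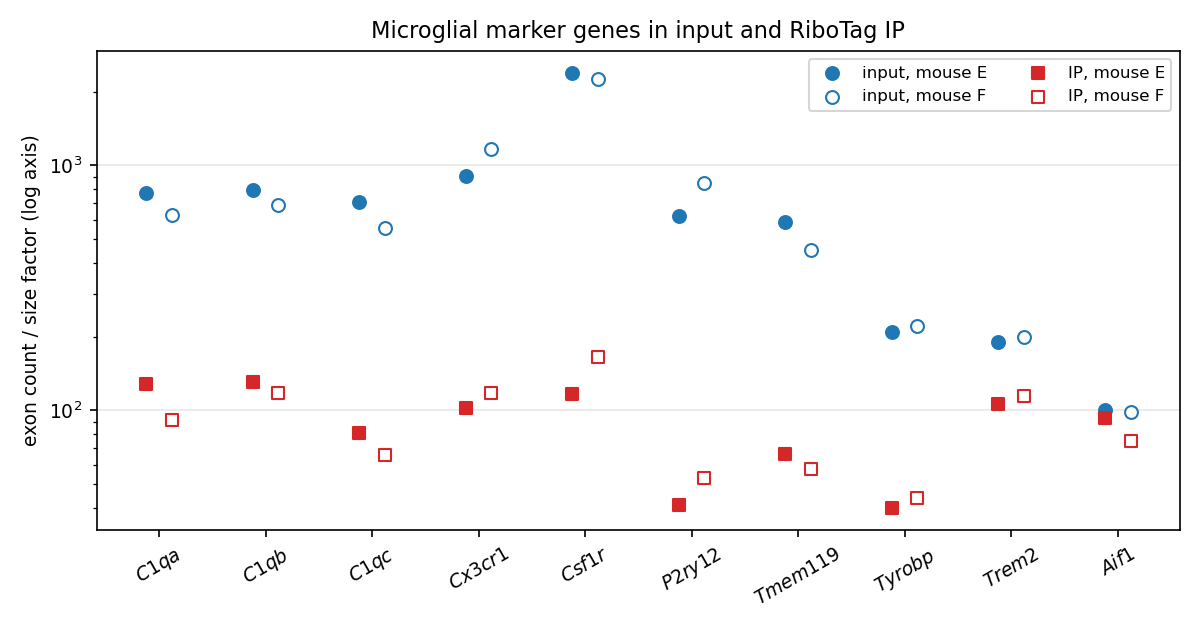
Exon counts divided by DESeq2 size factors (log axis) for each of the 10 marker genes in the input (circles) and RiboTag IP (squares) of mouse E (filled) and mouse F (open). For 8 genes the inputs lie far above both IP libraries, whereas for Trem2 the IP kept 56.1% and 57.3% of input, and for Aif1 92.4% and 76.0%.

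Among the receptors, Csf1r had the lowest value. Mouse E gave 2634 input and 88 IP exon counts, and mouse F gave 3211 and 143. Both IP libraries lay far below both inputs, and after division by size factors the IP retained 4.90% and 7.29% of input. The log2 change was -4.15 ± 0.17 (SE, n = 2 mice, edgeR adjusted p = 5.02e-05), the 51st lowest of the 13254 genes.

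P2ry12 followed closely. It had 685 input and 31 IP counts in mouse E and 1202 input and 46 IP counts in mouse F, or 6.63% and 6.27% of input. Its log2 change was -4.07 ± 0.23 (SE, n = 2 mice, edgeR adjusted p = 6.95e-05), at rank 57, and its interval overlapped that of Csf1r.

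Cx3cr1 gave 996 and 77 counts in input and IP of mouse E, and 1663 and 102 in mouse F. Input and IP were both higher in mouse F, and the retained shares were close, at 11.3% and 10.0%. Its log2 change was -3.35 ± 0.18 (SE, n = 2 mice, edgeR adjusted p = 6.56e-05).

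The C1q chains fell together. C1qa had 849 input and 96 IP counts in mouse E and 894 and 79 in mouse F. C1qb had 875 and 98 counts in mouse E and 975 and 102 in mouse F. C1qc had 782 and 61 counts in mouse E and 791 and 57 in mouse F. In each of the 3 genes both IP values were below both inputs, with a retained share of 14.5% to 16.6% for C1qa, 16.4% to 17.1% for C1qb and 11.4% to 11.8% for C1qc. The log2 changes were -2.80 for C1qa, -2.69 for C1qb and -3.23 for C1qc, and their 95% intervals overlapped (-3.29 to -2.31, -3.05 to -2.34 and -3.71 to -2.75).

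Tmem119 had 648 input and 50 IP counts in mouse E and 640 and 50 in mouse F, with 11.3% and 12.8% retained and a log2 change of -3.18. Tyrobp, the adaptor, had 231 and 30 counts in mouse E and 314 and 38 in mouse F, with 19.0% and 19.8% retained and a log2 change of -2.47. Its receptor partner stood elsewhere. Trem2 had 209 input and 80 IP counts in mouse E and 283 and 99 in mouse F. The IP values were again below both inputs, but the retained share was larger, at 56.1% and 57.3%. The change of -0.93 (95% interval -1.37 to -0.50, edgeR adjusted p = 0.00403) was short of the 2-fold limit, and the interval of Trem2 did not reach that of Tyrobp (-2.97 to -1.98).

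Aif1 was the member with the smallest difference. It had 111 input and 70 IP counts in mouse E, and 140 and 65 in mouse F. After size factors the groups nearly met, with inputs at 101 and 98.5 and IP libraries at 93.2 and 74.9. The log2 change was -0.37 (95% interval -0.91 to 0.18, edgeR adjusted p = 0.192). On CDS counts the sign turned, with 97 input and 67 IP counts in mouse E and 128 and 62 in mouse F, and a log2 change of 0.19 (edgeR adjusted p = 0.479). The other 9 members stayed below 0 on CDS counts in both mice.

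Scaling moved the values without moving the 8 calls. With library totals in place of size factors, the median log2 ratio of IP to input over all genes went from 0.089 to -0.31 in mouse E and from 0.074 to -0.31 in mouse F, and the members' medians from -2.87 to -3.27 and from -2.88 to -3.26. Under library totals Trem2 passed the 2-fold limit (log2 change -1.21, edgeR adjusted p = 0.00141). On CDS counts its log2 change was -0.50 and missed the test as well as the limit (edgeR adjusted p = 0.0512). Without mouse E or without mouse F, the same 8 members were called.

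For some members the position of the reads also differed between input and IP. For Cx3cr1, 32.0% (95% exact binomial interval 29.1 to 35.0) of exon counts lay on CDS in the input of mouse E and 15.6% (8.32 to 25.6) in its IP. In mouse F these shares were 30.8% (28.6 to 33.1) and 11.8% (6.23 to 19.6). The intervals of input and IP did not overlap in either mouse. For Csf1r the input and IP shares were 85.6% and 71.6% in mouse E and 85.4% and 69.9% in mouse F. C1qa showed no such gap, with 90.3% and 91.7% in mouse E and 92.2% and 91.1% in mouse F. Aif1 went the other way, with 87.4% and 95.7% in mouse E and 91.4% and 95.4% in mouse F, its intervals overlapping. Trem2 differed between the mice, with 79.4% and 88.8% in mouse E and 83.7% and 72.7% in mouse F. The direction for C1qb and Tyrobp differed between the mice as well. These intervals cover counting error only. Over all genes the exon-to-CDS ratio was also higher in the IP, with a median log2 ratio of 0.83 and 0.92 against 0.56 and 0.58 in the inputs.

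Other microglial genes followed the members. Of 22 further microglial identity genes tested, 21 were lower in the IP and none was higher, with a median log2 change of -3.02. The lowest were Itgam, a chain of complement receptor CR3, at -4.49, the sialic acid receptor Cd33 at -4.25, the receptor Gpr34 at -3.85 and the lysosomal protease Ctss at -3.82. The 1 gene that was not called was Rgs10, a regulator of G-protein signalling, with a change of 0.37, named here after its value was seen. The list's summed level in the IP was 14.8% and 16.3% of input by CPM. All 4 border macrophage markers tested were lower as well, among them the mannose receptor Mrc1 at -3.34 and the scavenger receptor Stab1 at -3.11.

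Genes that act with the members were more mixed. Of 17 ligands, signalling partners and coreceptors tested, 10 were lower and 1 was higher. The TGF-beta receptor chain Tgfbr2 changed by -3.26, the Trem2 ligand Apoe by -3.23, the phospholipase Plcg2, which signals downstream of Trem2, by -3.09 and the ligand Tgfb1 by -2.63. The gene that was higher was Cx3cl1, the fractalkine ligand of Cx3cr1, at 1.19 (edgeR adjusted p = 1.08e-04), named after its value was seen. Cx3cr1 and its ligand thus moved in opposite directions. The 2 ligands of Csf1r did not pass the rule: Il34 had a log2 change of 0.86 (95% interval 0.59 to 1.13) and Csf1 one of -0.68 (-1.30 to -0.06).

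Among 13 complement genes beside C1q, 8 were lower and 1 was higher. Beside Itgam, which is on both lists, these included the second CR3 chain Itgb2 at -3.46 and C4a at -3.12. C4a shares near-identical sequence with C4b, and the study reports uniquely mapped reads, so reads that fit both may be missing. The gene that was higher was C1ra, one of the proteases that join C1q in the C1 complex, at 1.08 (95% interval 0.32 to 1.84), named after its value was seen. Of 12 genes known to rise in disease-associated microglia, 5 were lower, with the receptor Axl at -3.62 and the tetraspanin Cd9 at -3.34 in front, and none was higher. Several of these, such as the cathepsins, are expressed by neurons too, and the list's summed CPM in the IP was 97.9% and 103.7% of input.

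Microglia were not alone in being depleted. All 10 oligodendrocyte markers (median log2 change -2.99), all 10 endothelial markers (-3.77), 8 of 10 astrocyte markers (-2.76) and 7 of 8 inhibitory neuron markers (-2.09) were lower in the IP, and none of these lists held a gene that was higher.

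**Figure D2:**
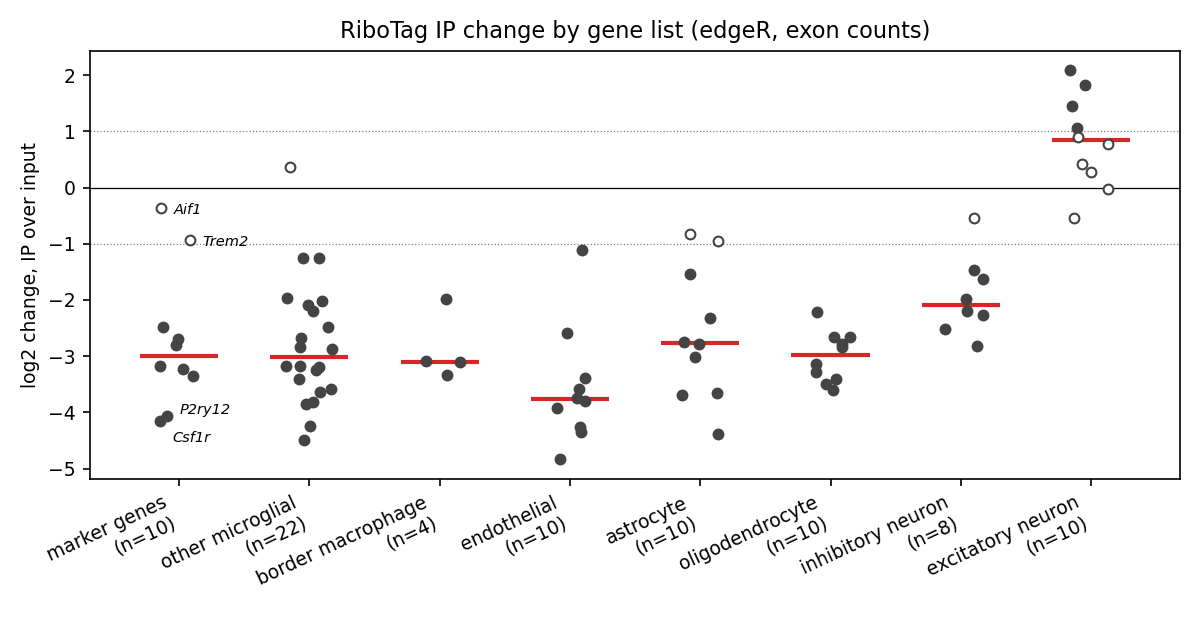
The log2 change of IP over input (edgeR, exon counts, n = 2 mice per group) for each tested gene of 8 lists, with filled points for genes past the test and the 2-fold limit, open points for the rest, red bars at the list medians and dotted lines at the 2-fold limit. The 10 microglial markers have a median of -2.99, between those of the inhibitory neuron (-2.09) and endothelial (-3.77) markers, and the excitatory neuron markers one of 0.84.

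The second comparison asked how the marker mRNAs were translated in the vehicle-treated brain. Translation efficiency (TE) is the ratio of footprints to RNA-Seq counts on CDS, and the values are relative to the other genes of the same mouse, not absolute. All 10 members reached 75 counts in each vehicle library pair. Their median log2 TE was -0.27, compared with 0.016 over 10882 genes, and 7 of the 10 were below the median of all genes. The spread among them was narrow, with an SD of 0.42 across members against 0.99 across genes. In the edgeR test of footprints against RNA, 5 members were lower and 2 were higher. By the same rule 37.3% of the 11797 genes tested were lower and 36.5% were higher, so that most genes of the table pass this test.

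C1qa had 409 and 203 footprints in mice A and B and 648 and 741 RNA counts, with a log2 TE of -0.52 and -0.68. C1qb had a log2 TE of -0.17 and -0.53, and C1qc of -0.19 and -0.50. The 3 C1q chains were below 0 in both mice, and the edgeR log2 differences of footprints from RNA were -0.55 (adjusted p = 6.92e-05), -0.30 (adjusted p = 0.0158) and -0.27 (adjusted p = 0.0248).

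Tyrobp had the lowest TE of the members, from 96 and 34 footprints and 157 and 201 RNA counts. Mouse A had a log2 TE of -0.56 and mouse B one of -1.37, a gap between mice wider than for any other member (edgeR log2 difference -0.86, adjusted p = 0.00112). The value of mouse B rests on fewer than 37 footprints, below the limit for a single library. Trem2 gave -0.07 and -0.37 and did not pass (-0.19, adjusted p = 0.356).

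Cx3cr1 had more footprints than most members for its RNA, with 255 and 134 footprints and 189 and 228 RNA counts. Its log2 TE was 0.58 and 0.42 (edgeR log2 difference 0.54, adjusted p = 0.00461). P2ry12 was also higher, at 0.48 and 0.10 (edgeR log2 difference 0.32, adjusted p = 0.0385). Csf1r was the third receptor, with 1309 and 629 footprints and 1604 and 1763 RNA counts, and it was lower, at -0.15 and -0.30 (edgeR log2 difference -0.18, adjusted p = 0.0371). The 3 receptors therefore did not share a direction on CDS counts. Tmem119 had a log2 TE of -0.24 and -0.38 and Aif1 of -0.002 and 0.041, and neither passed.

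In order of mean log2 TE over mice A and B, the members ran from Tyrobp (-0.97) through C1qa (-0.60), C1qb (-0.35), C1qc (-0.35), Tmem119 (-0.31), Csf1r (-0.22), Trem2 (-0.22), Aif1 (0.019) and P2ry12 (0.29) to Cx3cr1 (0.50). Neighbours in this order from C1qb to Trem2 differed by less than the SD between mice of 1 gene, which was 0.10 to 0.25 for them.

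**Figure D3:**
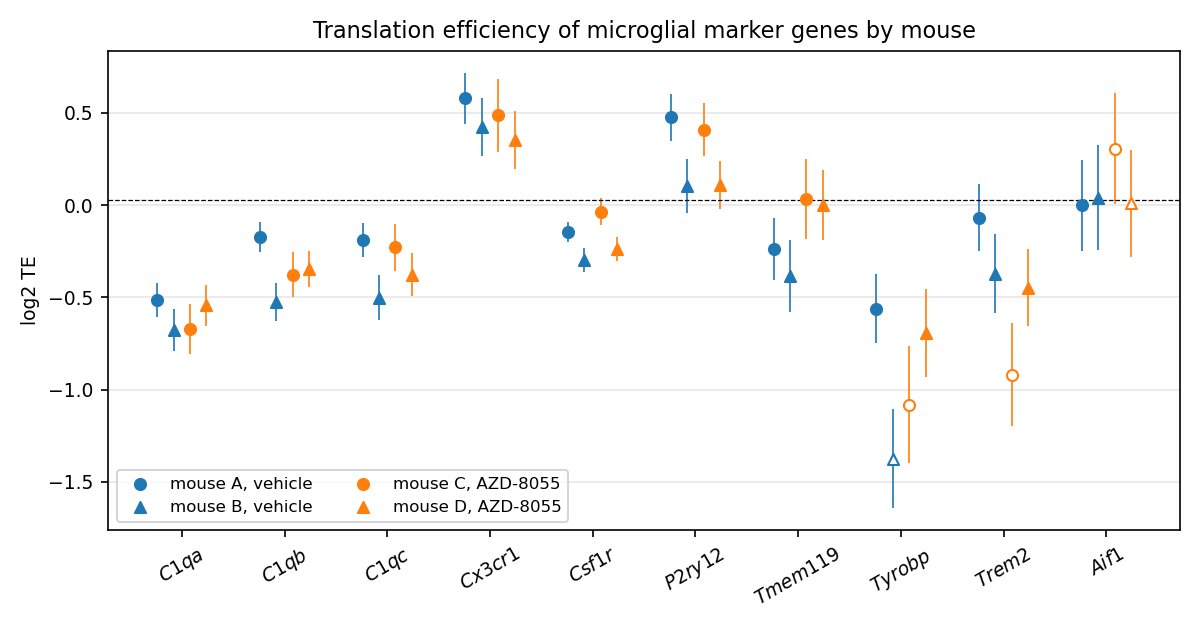
The log2 TE (CDS footprints over CDS RNA-Seq, each divided by its size factor) of each marker gene in the 4 mice, with vehicle in blue and AZD-8055 in orange, bars for 1 counting SE, open symbols for values resting on fewer than 37 counts in a library, and a dashed line at the mean of the 4 all-gene medians. Cx3cr1 and P2ry12 lie above 0 in all 4 mice, and C1qa, C1qb, C1qc, Csf1r, Trem2 and Tyrobp below 0.

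These TE directions depended on which RNA counts formed the denominator. With exon counts for RNA-Seq in place of CDS counts, 4 members were higher and 2 lower, and the members' median log2 TE turned positive in every mouse (0.32 in A, 0.037 in B, 0.26 in C and 0.12 in D, against -0.16, -0.37, -0.036 and -0.35). These medians cover only members with at least 37 counts in each library, which were 10, 9, 7 and 9 in mice A to D. With all 10 members they were 0.32, 0.035, 0.11 and 0.14, against -0.16, -0.38, -0.13 and -0.29. C1qb changed from -0.30 to 0.40, C1qc from -0.27 to 0.30, Csf1r from -0.18 to 0.39, C1qa from -0.55 to 0.16 and Cx3cr1 from 0.54 to -0.43. The log2 of exon over CDS counts had a member median of 0.26 in both vehicle mice, compared with 0.61 over all genes. The members differed in this, since CDS held 92.8% of the exon counts of C1qa in mouse A but 28.9% for Cx3cr1, 35.6% for Tmem119 and 50.9% for P2ry12. Only Tmem119 (-0.91) and Cx3cr1 were lower with the exon denominator. The calls on CDS also rested on both mice: without mouse A those of Cx3cr1, Csf1r and P2ry12 were lost (adjusted p = 0.0864, 0.105 and 0.416), and without mouse B those of C1qb, C1qc, Csf1r and Tyrobp (adjusted p = 0.366, 0.290, 0.321 and 0.0769).

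The other microglial identity genes showed no shared direction of TE, with 2 higher and 5 lower among 19 tested and a median log2 difference of 0.09. The lowest were the transcription factor Sall1 at -1.73, the receptor Csf3r at -1.46, the Fc receptor Fcgr3 at -0.94 and the selectin ligand Selplg at -0.83. Of 16 partners and ligands, 6 were higher and 6 lower, with the TGF-beta receptor Tgfbr1 at 1.48 and Cx3cl1 at 1.02 at the upper end and Tgfb1 at -1.14 and Ptpn6, a phosphatase of immune receptors, at -0.98 at the lower end.

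The third comparison asked whether 1 h of AZD-8055 changed the marker genes. mTOR drives the translation of mRNAs for the translation machinery. Whether the inhibitor reached its target in microglia was not measured here. None of the 10 members was called in RNA-Seq, footprints or TE by edgeR. DESeq2 called none either, but gave no adjusted p for 6 members in RNA-Seq, P2ry12 among them, and for 4 in footprints. By edgeR the called share of all genes was 0.148% for RNA-Seq (12182 genes tested), 1.03% for footprints (10695 genes) and 0.305% for TE (11797 genes, with the 2-fold limit). At an unadjusted p below 0.05 there was 1 member for RNA-Seq, 1 for footprints and 0 for TE, against 8.24%, 12.8% and 6.75% of all genes.

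The summed level of the 10 genes was 363 and 398 CPM of exon counts in vehicle mice A and B and 357 and 377 CPM in AZD-8055 mice C and D, so the groups overlapped. Log2 changes of the single genes ran from -0.22 to 0.29 in RNA-Seq, from -0.21 to 0.30 in footprints and from -0.39 to 0.35 in TE.

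P2ry12 was the member that came nearest in both kinds of library. It had 231 and 314 RNA counts on CDS in vehicle mice and 331 and 383 in AZD-8055 mice, with 290 and 148 against 144 and 180 footprints in libraries of unequal depth. The log2 change was 0.29 in RNA-Seq (95% interval 0.03 to 0.56, edgeR adjusted p = 0.558) and 0.30 in footprints (0.02 to 0.57, edgeR adjusted p = 0.366), neither past the test. Its TE change was -0.02 (-0.42 to 0.37).

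C1qa had 648 and 741 RNA counts in vehicle and 671 and 728 in AZD-8055 mice, and 409 and 203 against 138 and 218 footprints. Its log2 TE in mice C and D was -0.67 and -0.54, which overlapped the vehicle values. The TE change was 0.005 for C1qa (95% interval -0.29 to 0.30), -0.001 for C1qb (-0.32 to 0.32) and 0.013 for C1qc (-0.31 to 0.33). Csf1r, with the most counts of the 10, had the narrowest TE interval, 0.08 (-0.14 to 0.30). A 2-fold change of TE lay outside the interval of every member.

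Trem2 and Tmem119 had the largest TE differences. Trem2 had 118 and 61 footprints in vehicle and 31 and 64 in AZD-8055 mice, a log2 TE of -0.92 in mouse C and -0.45 in mouse D, and a TE change of -0.39 (95% interval -0.97 to 0.19, edgeR adjusted p = 0.846). Both AZD-8055 values were below both vehicle values, and the value of mouse C rests on fewer than 37 footprints. The change was -0.19 without mouse C and -0.70 without mouse D. Tmem119 had 130 and 73 footprints in vehicle and 59 and 82 in AZD-8055 mice, a log2 TE of 0.033 in mouse C and -0.001 in mouse D, and a TE change of 0.35 (-0.13 to 0.83, edgeR adjusted p = 0.820), with both AZD-8055 values above both vehicle values. Tyrobp changed by 0.07 (-0.58 to 0.72) and Aif1 by 0.15 (-0.52 to 0.83) in TE, with 24 to 96 and 32 to 64 footprints a library.

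**Figure D4:**
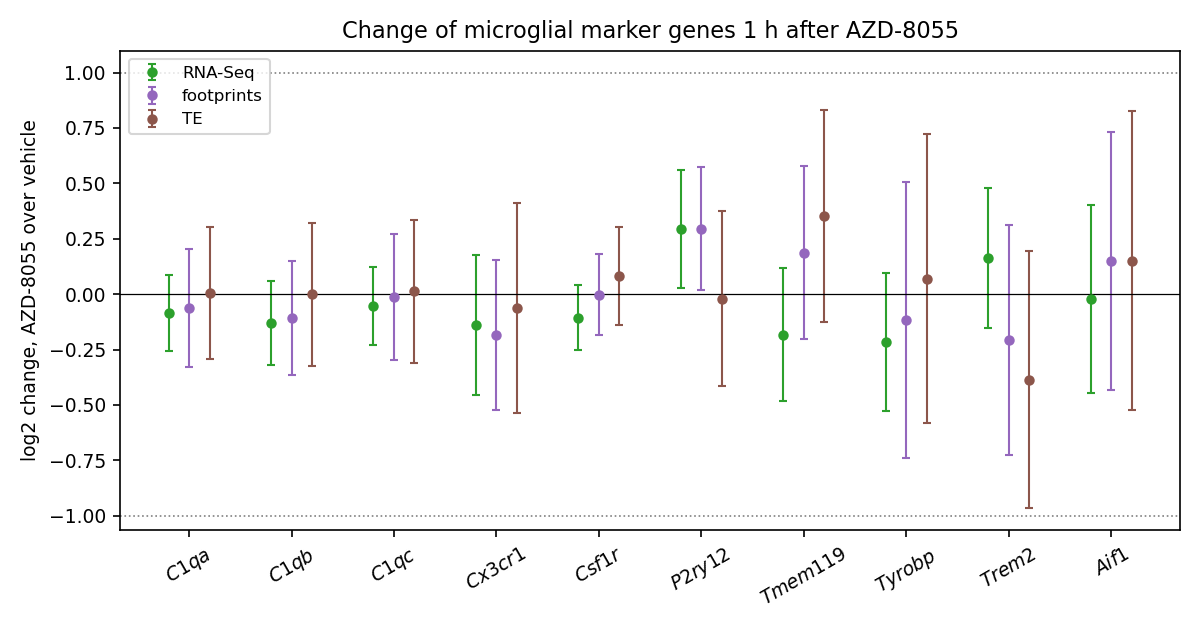
The log2 change of AZD-8055 over vehicle (edgeR, points) with its 95% interval for each marker gene in RNA-Seq, footprints and TE (n = 2 mice per group), with dotted lines at the 2-fold limit. Every interval stays inside the 2-fold lines, and apart from RNA-Seq and footprints of P2ry12 each interval includes 0.

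Among the lists of related genes, none of 21 other microglial identity genes, 16 partners and ligands or 11 complement genes passed the test in RNA-Seq, and none of those tested passed it in footprints or TE.

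Over the 8 RNA-Seq libraries, the mean centred profile of the members was 0.71 to 0.88 (log2 CPM) in the 6 inputs and poly(A) libraries and -2.27 and -2.26 in the IP libraries. The 5 other genes with the most similar profile, by root mean square difference in log2 CPM over these 8 libraries, were Rnpc3 (0.037), 4632428N05Rik (0.072), Tst (0.076), Zcchc24 (0.080) and Adamts4 (0.084), none of which was on a list used here. The members themselves ranged from 0.16 (C1qb, rank 84 of 13232 genes) to 1.06 (Aif1, rank 5021). Such likeness describes mainly the gap between IP and the other libraries.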

How the data were processed

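Mouse brain RNA-Seq, RiboTag IP and footprint libraries were analysed from 2 tables of gene counts deposited by the authors, 1 over exons (RNA-Seq) and 1 over CDS (all libraries). Per the study's methods, reads were trimmed, cleared of rRNA by Bowtie2 and mapped by TopHat2, and HTSeq counted them per gene; the submitters' processing notes name mm10, and versions are not given in the sources used here. Strict intersection drops reads that lie wholly within the counted features of several genes. In the CDS table, 27 gene names had turned into dates (0.350% of counts). These entries stayed in the totals and scaling, and in the tests where they reached the count limit.

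Counts were tested with edgeR 4.0.16 (quasi-likelihood, TMM, mean of at least 37 counts per library), with Benjamini-Hochberg adjusted p below 0.05. IP and TE change also needed a 2-fold difference. The TE change was the interaction of library type and treatment. Ratios per mouse used DESeq2 1.42.0 size factors, with at least 37 counts in each library, or 75 over a pair. Scripts were tested on simulated data. Alternatives were DESeq2, library totals, other count limits, the other count table, other sets of samples, a block for mouse, and leaving out each mouse. Same-lettered libraries came from 1 animal, and their deviations correlated (0.253 for A and B, 0.240 for C and D, 0.560 for E and F). The p-values of the IP, RNA-Seq and footprint tests rest on the spread between 2 mice in each group. Both TE tests shared 1 estimate of spread from all libraries of mice A to D, so AZD-8055 mice enter the vehicle TE test. Without the block, libraries of 1 animal were treated as independent. Groups came from the sample labels; age, vehicle and tissue from the methods. The members, gene lists and tests were chosen with earlier results of these data known. Named genes were all members, up to 4 genes of each list with the largest change among those past the test, and the 5 most similar profiles; 1 listed gene is not reported here. Gene positions, and promoter sequences for 6 of the 10 genes, were from RefSeq (GRCm38.p6). With no coding lengths at hand, levels were not compared between single genes, and the summed CPM of gene lists were not corrected for length.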

Additional observations from a re-analysis of the deposited data

How the results depend on the processing

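With 2 mice a group, intervals are wide for members with few footprints, mainly Tyrobp, Aif1 and Trem2. The 8 IP calls of members held under every alternative, and no member tested was called for the drug. Not all were tested: DESeq2 gave no adjusted p for 6 members in RNA-Seq and 4 in footprints, and for footprints the limit of 100 counts left 6 members and the fit without mouse A left 8. Aif1 did not reach the limit of 100 counts in any comparison. The cause of the shifts below was not tested unless named.

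For IP over input, genes called higher numbered 774 with library totals (17.5% of calls, against 34.9%), 2493 with CDS counts (43.9%) and 4463 without the fold limit, which also gave 4731 lower. Member medians in mice E and F were -2.57 and -2.51 with CDS counts and -3.27 and -3.26 with library totals. For vehicle TE, members called higher and lower numbered 1 and 3 with DESeq2, 4 and 2 with exon RNA counts (added after seeing the data), and 0 and 0 with a 2-fold limit (all genes: 1559 and 2079). Members called higher numbered 1 with library totals and 1 with no filter. Leaving out 1 mouse gave 0 to 2 members higher and 1 to 5 lower. With exon RNA counts the member medians were 0.32, 0.037, 0.26 and 0.12 in mice A to D, and C1qa (0.16), C1qb (0.40), C1qc (0.30), Csf1r (0.39) and Cx3cr1 (-0.43) changed sign. For all genes and the drug, calls numbered 57 (no filter) and 102 (no fold limit) for TE, 29 (library totals), 78 (no filter) and 11 (all 8 libraries) for RNA-Seq, and 264 (no filter) and 179 (all 8 libraries) for footprints. Leaving out 1 mouse gave 13 to 36 for RNA-Seq and 64 to 837 for footprints, the highest without mouse C.

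With a replicate block for mouse, paired IP calls were 1547 higher and 2916 lower, TE calls 4451 and 4523, and drug TE calls 43; no call of a member changed.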
